A study of Mus musculus with 36 samples.

Results

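Small RNA libraries from the prostate of mice homozygous for the A537T variant of ELAC2 were compared between 30 and 10 weeks of age. The comparison was defined by genotype and age, and it took 6 of the 36 libraries of the series, 3 A537T libraries of 30 weeks (libraries 25, 26 and 27) and 3 A537T libraries of 10 weeks (libraries 34, 35 and 36). ELAC2 is the ribonuclease that removes the 3′ trailer from precursor transfer RNAs. A537T mice have alanine replaced by threonine in this enzyme in every cell of the body, introduced by CRISPR-Cas9 as the mouse equivalent of a human variant. The animals were males on the strain background given as C56NL/6N, none of the groups used here carried the TRAMP transgene, and the tissue was the ventral and lateral prostate lobes. The same 2 ages were also available for wild-type mice (WT, ELAC2+/+) and for mice with a prostate deletion of Elac2 (KO, ELAC2-/-), 3 libraries at each age. In KO mice the deletion was driven by Cre under the probasin promoter, so other cells of the lobes can keep the gene. The tables hold miRNAs alone, so the genotype of a library could not be checked against Elac2 itself, and which library belongs to which group rests on the names of the tables. The study's methods describe 3 mice of each line and biological replicates, so p-values measure the spread between 3 replicates of each age.

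MicroRNAs (miRNAs) are cut from hairpin precursors, and 1 or both arms of a hairpin can remain as mature miRNAs of about the length of the sequences shown here. The seed, bases 2 to 8 from the 5′ end, pairs with target messenger RNAs, so miRNAs with the same seed can share targets. Several miRNAs are typical of a cell type, such as miR-1a, miR-133 and miR-206 of skeletal muscle, miR-142a of blood cells and miR-375 of neuroendocrine and secretory cells. Others are made from long clusters, and the largest in the mouse lies in the imprinted Dlk1-Dio3 locus, where miRNAs are expressed from the maternal chromosome.

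The results turn on 5 sets of miRNAs, and these mature sequences show how their members relate. Capitals mark the seed, and the sequences are those of RefSeq for GRCm38. Of the skeletal muscle miRNAs, miR-206 and miR-133b come from neighbouring hairpins and have unrelated seeds. The miR-378 members read the same run of bases, which miR-378b enters a base later. The 3 miRNAs shown from the Dlk1-Dio3 locus have different seeds. The cluster pair miR-221 and miR-222 shares a seed. The hairpins of miR-340 and miR-142a are shown with both arms because both arms changed.
miR-206-3p: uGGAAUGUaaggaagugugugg
miR-133b-3p: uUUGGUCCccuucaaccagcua
miR-378c: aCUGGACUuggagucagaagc
miR-378b: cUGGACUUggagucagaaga
miR-127-3p: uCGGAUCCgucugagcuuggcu
miR-381-3p: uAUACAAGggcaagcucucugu
miR-495-3p: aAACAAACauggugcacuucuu
miR-221-3p: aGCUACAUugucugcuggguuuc
miR-222-3p: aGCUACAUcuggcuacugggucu
miR-340-5p: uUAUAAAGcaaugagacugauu
miR-340-3p: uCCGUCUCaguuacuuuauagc
miR-142a-5p: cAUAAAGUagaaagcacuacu
miR-142a-3p: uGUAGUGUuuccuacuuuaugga

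Library 35 held 655455 miRNA reads and 541 detected miRNAs, while the other 5 A537T libraries had totals of 13859833 to 21870210 reads with 922 to 1055 miRNAs detected. Values are given as reads per 1000000 miRNA reads (rpm), and 1 read was worth 1.53 rpm in library 35. Marker miRNAs were read as a rough check of the tissue, and none of them is specific to prostate. The epithelial list, led by miR-200b-3p, took 3.87% to 9.84% of reads in the 6 libraries and did not separate the ages. The liver miRNA miR-122-5p stood at 1.14 to 3.05 rpm. Its highest value was that of library 35, where 3 reads were worth 4.58 rpm. Skeletal muscle miRNAs moved with age, at 0.356% to 0.546% of reads at 30 weeks and 3.72% to 13.7% at 10 weeks. Library 26 stood apart from the other 30-week libraries, with miR-143-3p, the most abundant miRNA, at 153125 rpm against 251509 rpm in library 25 and 251627 rpm in library 27. Results that rest on libraries 26 or 35 are given with and without them.

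The first question was how many miRNAs differed between the ages. Of 509 miRNAs with a mean of at least 1 rpm over the 6 libraries, 67 were lower at 30 weeks (13.2% of those tested) and 12 were higher (2.36%) at a limma Benjamini-Hochberg adjusted p under 0.05. Fold changes are on the log2(rpm + 1) scale, 30 minus 10 weeks, which understates the change of low miRNAs. The falls ran from -7.69 to -0.76 and the rises from 0.71 to 2.62, against a median of -0.08 over all tested. None of the 79 overlapped between the ages, but neither did many others, with 120 of 509 wholly lower (23.6%) and 65 wholly higher (12.8%) at 30 weeks. The split depended on scaling. Dividing by median-of-ratios size factors in place of the total moved the median of all miRNAs to 0.07 and gave 22 higher and 55 lower, while edgeR gave 20 and 58 and DESeq2 26 and 70. A total without the skeletal muscle list moved the median to -0.20 and gave 7 higher and 74 lower. Of the 67 falls, 41 belonged to the Dlk1-Dio3 list, 6 to the skeletal muscle list and 5 to the miR-378 family. Whether the libraries of both ages were prepared together is not given in the sources used here, so preparation and age cannot be told apart.

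**Figure D1:**
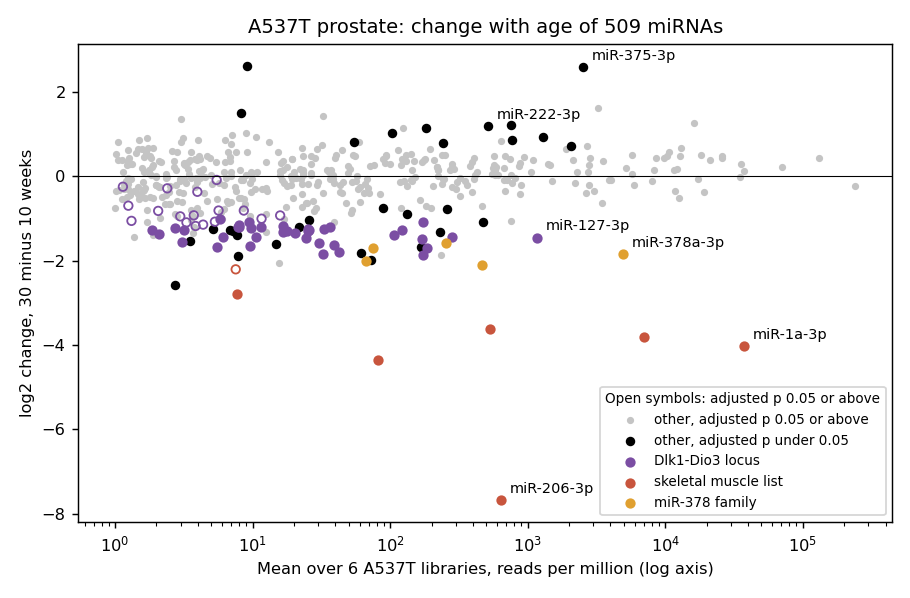
Change with age of the 509 tested miRNAs in A537T prostate (vertical axis, log2 change, 30 minus 10 weeks) against the mean of the 6 libraries in rpm (horizontal, log axis). Filled coloured symbols are members of the Dlk1-Dio3 locus, the skeletal muscle list and the miR-378 family at a limma adjusted p under 0.05, open ones are those at 0.05 or above, and black points are other miRNAs under 0.05. The skeletal muscle miRNAs reach the lowest values, down to -7.69 for miR-206-3p, and miR-375-3p stands highest among abundant miRNAs at 2.59.

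Skeletal muscle miRNAs gave the largest falls. miR-206-3p, which is largely restricted to skeletal muscle, stood at 6.58, 2.67 and 6.16 rpm in libraries 25, 26 and 27 and at 1766, 1268 and 776 rpm in libraries 34, 35 and 36. Every 10-week library was thus far above every 30-week library, and the means differed 247-fold (5.14 ± 2.15 rpm against 1270.0 ± 495 rpm, SD, n = 3 each). The log2 change was -7.69 ± 0.37 (SE, limma adjusted p = 2.13e-06). Its hairpin lies at chr1:20679010-20679082 (GRCm38, plus strand) in an exon of the long non-coding RNA gene Gm28653, which also holds Mir133b at chr1:20682769-20682887.

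miR-1a-3p, the most abundant muscle miRNA, took 4478, 2682 and 4558 rpm at 30 weeks and 111756, 68861 and 30691 rpm at 10 weeks (means 3906 and 70436 rpm), a log2 change of -4.02 ± 0.43. miR-133a-3p, made with miR-1a from shared precursors, fell by 3.81 on the log2 scale, and miR-133b-3p by 3.61. The minor arms moved with the major ones, by -4.35 for miR-133a-5p and -2.79 for miR-1a-1-5p. At 10 weeks the muscle miRNAs were lowest in library 36 for each of these major arms, and even there they were above every 30-week library. Of 13 miRNAs listed for skeletal muscle, 10 had a read and 7 were tested. Of these, 6 fell (limma adjusted p of 2.13e-06 to 0.00527), where 13.2% of all miRNAs tested were called lower. The seventh, miR-499-5p of slow and heart muscle, had a log2 change of -2.21 with an adjusted p of 0.131. The median of the 7 was -3.81, against -0.08 over all tested, and the same 6 passed in each of the alternatives in which they were tested. In bulk tissue the amount of muscle in a sample and the RNA per muscle cell cannot be told apart. At 10 weeks the muscle share ran from 3.72% to 13.7% in A537T and from 9.74% to 30.7% in WT. What set the share of a library was not tested.

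The same miRNAs separated the ages in WT, where all 7 were called lower, with a median of -4.95. Over all miRNAs in WT, 18 of 511 were called lower (3.52%). In KO the median was -1.60 and none of the 7 was called, beside 118 of 504 called lower over all miRNAs (23.4%). The KO libraries of 10 weeks differed among themselves, with a skeletal muscle share of 6.51% in library 32 but 0.773% in library 31 and 0.736% in library 33. The difference between the A537T and KO changes was -5.65 ± 1.86 for miR-206-3p (limma adjusted p = 0.194). Without KO library 32 it was -7.55 ± 1.18, with an adjusted p of 0.00801. Leaving out that library also brought the differences of miR-1a-3p, miR-133a-3p, miR-133a-5p and miR-378a-3p under the threshold, each lower in A537T. Library 32 stood out by its muscle share, so leaving it out removes the highest KO muscle share of 10 weeks. The adjusted p without it therefore cannot decide whether the genotypes differ.

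**Figure D2:**
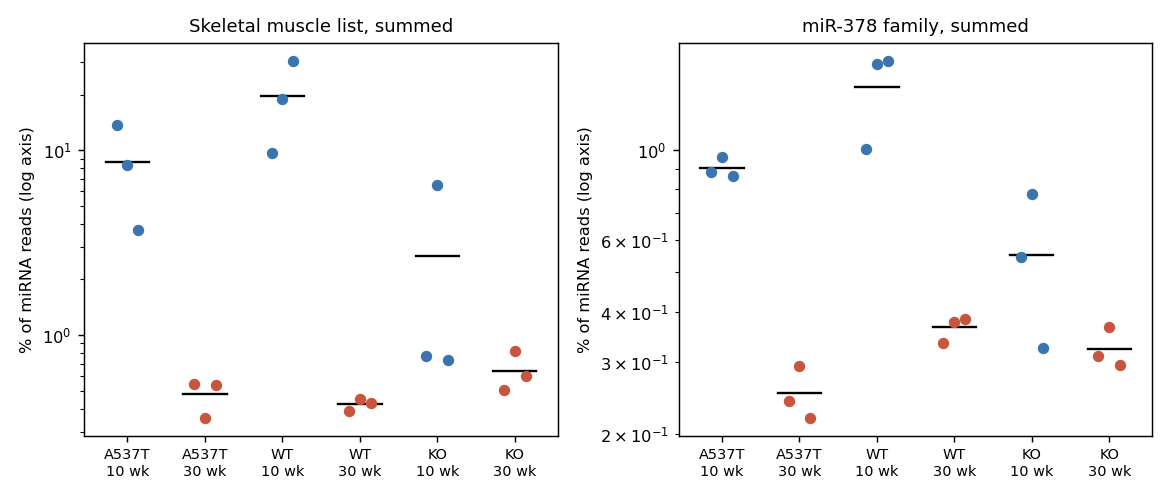
Shares of reads taken by the skeletal muscle list and the miR-378 family in each library of A537T, WT and KO prostate at 10 and 30 weeks (vertical axes in percent of miRNA reads, points are libraries and bars are means). The A537T muscle share lies at 3.72% to 13.7% at 10 weeks and 0.356% to 0.546% at 30 weeks, and the miR-378 share at 0.866% to 0.960% and 0.219% to 0.294%.

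The miR-378 family, which is known for roles in energy metabolism and is abundant in muscle and brown fat, fell as a whole. Of its 5 members 5 were called lower, where 13.2% of all miRNAs tested were. miR-378a-3p carried most of its reads, with 2067, 2453 and 1907 rpm at 30 weeks and 7371, 8228 and 7413 rpm at 10 weeks. The 10-week values were all above the 30-week values, and the means differed 3.58-fold (log2 change -1.85 ± 0.19, SE, limma adjusted p = 0.000638). The other arm of its hairpin, miR-378a-5p, changed by -1.70 ± 0.23. miR-378c stood at 172, 226 and 134 rpm against 805, 774 and 669.1 rpm, a change of -2.10 ± 0.23. miR-378b stood at 24.4, 37.5 and 18.5 rpm against 124, 114 and 84.5 rpm, and miR-378d changed by -1.59. Since these miRNAs differ by few bases, reads of 1 member can be counted under another, and the family was also summed.

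The summed family took 0.241%, 0.294% and 0.219% of reads in libraries 25, 26 and 27 and 0.882%, 0.960% and 0.866% in libraries 34, 35 and 36. The muscle share in the same 10-week libraries was 13.7%, 8.36% and 3.72%. In WT at 10 weeks the miR-378 shares were 1.00%, 1.63% and 1.66% beside muscle shares of 9.74%, 19.1% and 30.7%, and in KO they were 0.545%, 0.781% and 0.326% beside 0.773%, 6.51% and 0.736%. The part of muscle in the miR-378 fall was not tested. All 5 members passed in every alternative in which they were tested. In WT all 5 were also called lower, where 3.52% of all miRNAs were. The WT median was -2.14 against -1.85 in A537T, and the difference between the 2 genotypes was 0.04 ± 0.30 for miR-378a-3p. In KO the median was -0.86 with none called, where 23.4% of all miRNAs were called lower. The difference of the A537T from the KO change was -1.21 ± 0.36 for miR-378a-3p (limma adjusted p = 0.180).

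The largest group of falls came from the Dlk1-Dio3 imprinted locus on chromosome 12. Of 97 mature miRNAs on its list, 89 had a read and 58 were tested. All 58 had a negative change, as did 285 of all 509 tested. Of the 58, 41 were called lower and none higher, where 13.2% of all miRNAs tested were called lower. In 52 the ages did not overlap, where 23.6% of all miRNAs tested were wholly lower at 30 weeks. The median change was -1.25. Placed on the genome, 55 tested miRNAs lay in a pair of stretches 63.9 kb apart. These were 54 of the 58 and miR-1193-3p, which is not on the list, while miR-376c-3p, miR-485-5p, miR-487b-3p and miR-666-5p, all called lower, were not placed. The first, from Mir770 to Mir370 at chr12:109563692-109618336 (GRCm38), had 19 tested miRNAs, of which 12 fell, with a median of -1.26. The second, from Mir882 to Mir3072 at chr12:109682197-109747960, had 36 tested, of which 26 fell, with a median of -1.23. The changes of the 55 in both stretches ran from -1.88 to -0.09, and the medians of the stretches were close.

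The most abundant member was miR-127-3p, whose hairpin at chr12:109592846-109592915 lies opposite an exon of Rtl1, a retrotransposon-derived gene of the same locus. It stood at 600, 573 and 697 rpm at 30 weeks and at 1509, 1669 and 1958 rpm at 10 weeks. The groups were well separated, with a 2.75-fold difference of means and a log2 change of -1.45 ± 0.20 (limma adjusted p = 0.00178). The other arm, miR-127-5p, moved alike, from 59.8, 76.3 and 63.1 rpm to 18.8, 22.0 and 14.5 rpm, a change of -1.81 ± 0.24. miR-381-3p, from Mir381 at chr12:109726822-109726896, had the largest fall of the locus. Its values were 78.1, 52.6 and 90.3 rpm at 30 weeks and 217, 269 and 326 rpm at 10 weeks (log2 change -1.88 ± 0.26, adjusted p = 0.00178). miR-495-3p, from Mir495 at chr12:109718754-109718816, stood at 14.95, 11.8 and 13.9 rpm against 39.9, 56.4 and 57.7 rpm (-1.84 ± 0.24, adjusted p = 0.00178). Among the other falls with a mean over 100 rpm, miR-434-5p changed by -1.70, miR-541-5p by -1.49, miR-379-5p by -1.45, miR-300-3p by -1.40, miR-434-3p by -1.26 and miR-411-5p by -1.09.

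The miRNAs of the locus that fell had different seeds, and in several hairpins both arms fell. The 55 tested miRNAs of the 2 stretches came from 39 hairpins and held 54 different seeds, and the 38 that fell held 38. In 16 hairpins both arms were tested, with both arms called in 9. Because all 55 changes were negative, the arms of these hairpins could only have the same sign. Over all hairpins with both arms tested, 94 of 119 had arms of the same sign, and 11 had both arms called. Of the 24 with a call in at least 1 arm, all 24 had arms of the same sign.

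Summed over the locus, the A537T libraries of 30 weeks held 1582, 1406 and 1723 rpm and those of 10 weeks 3716, 4276 and 5025 rpm. The 10-week sum was highest in library 36, which had the lowest muscle share (3.72%), and lowest in library 34, which had the highest (13.7%), whereas in KO at 10 weeks it was highest in library 32 (3816 rpm), which had the highest muscle share (6.51%). Leaving the muscle miRNAs out of the total gave 46 falls among 60 tested members of the list. The stromal and smooth muscle list, led by miR-143-3p, ran in the same order as the sum at 10 weeks, at 18.7%, 28.4% and 40.7% of reads in libraries 34, 35 and 36, but did not separate the ages, at 27.7%, 17.4% and 27.6% at 30 weeks. The part of stroma in this result was not tested. The number of falls rested on single libraries, with 20 of 57 tested members called without library 36, 23 of 61 without library 25 and 29 of 59 without the shallow library 35. When the WT libraries were added to the fit, so that their larger spread was shared, 5 of 62 were called. In that fit miR-381-3p, miR-127-3p and miR-495-3p had limma adjusted p of 0.0529, 0.0677 and 0.0826.

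In KO, the locus also was lower at 30 weeks, with 52 of the list called lower and a median of -1.63, where 23.4% of all miRNAs tested were called lower. The KO sums were 850, 1090 and 860 rpm at 30 weeks and 3090, 3816 and 3075 rpm at 10 weeks, without overlap. In WT the median was -0.46 and none of the list was called, where 3.52% of all miRNAs tested were called lower. The WT sums overlapped, with 956, 3844 and 3101 rpm at 30 weeks and 4926, 2774 and 3449 rpm at 10 weeks, and library 19 was the low one. The difference between genotypes was not resolved. Of the 55 miRNAs of the stretches, 2 had an unadjusted limma p under 0.05 for A537T minus WT and 5 for A537T minus KO, and the smallest adjusted p were 0.773 and 0.144. For miR-127-3p the change in A537T minus that in WT was -0.86 ± 0.59, and minus that in KO 0.53 ± 0.26.

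**Figure D3:**
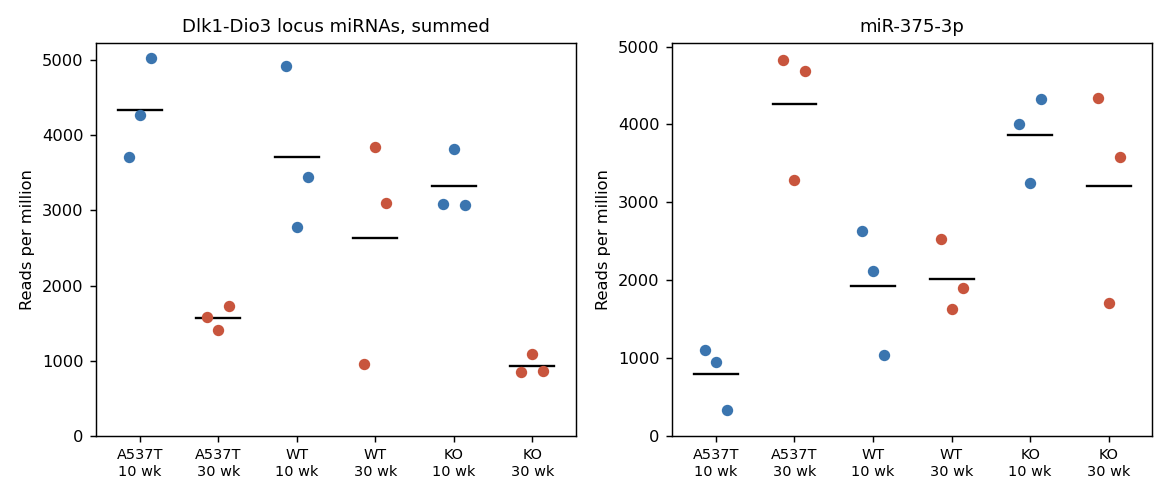
Summed rpm of the Dlk1-Dio3 locus and rpm of miR-375-3p in each library of A537T, WT and KO prostate at 10 and 30 weeks (vertical axes, points are libraries and bars are means). The locus is at 1406 to 1723 rpm at 30 weeks and 3716 to 5025 rpm at 10 weeks in A537T, and miR-375-3p at 3281 to 4826 rpm and 325 to 1105 rpm.

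Among the rises, miR-375-3p was the most abundant and, of those over 10 rpm, the largest. It is known from pancreatic islets, neuroendocrine cells and secretory epithelia, and it is often raised in prostate cancer. Libraries 25, 26 and 27 held 4826, 3281 and 4687 rpm and libraries 34, 35 and 36 held 1105, 949 and 325 rpm. The lowest 30-week value was far above the highest 10-week value, and the means differed 5.38-fold (4264 ± 855 rpm against 793 ± 413 rpm, SD, n = 3 each). The log2 change was 2.59 ± 0.42 (SE, limma adjusted p = 0.00315), and it passed in all 19 alternatives, including those without library 26 (2.77, adjusted p = 0.00246) and without library 35 (2.81, adjusted p = 0.0193).

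The other genotypes did not show this separation. WT held 2529, 1628 and 1897 rpm at 30 weeks and 2625, 2112 and 1039 rpm at 10 weeks, a change of 0.15. KO held 4339, 1709 and 3582 rpm at 30 weeks and 4012, 3248 and 4329 rpm at 10 weeks, a change of -0.36. At 30 weeks the A537T values lay above all 3 WT values and overlapped the KO values, while at 10 weeks they lay below all KO values and overlapped the lowest WT value. The change in A537T exceeded that in WT by 2.44 ± 0.63, with an unadjusted p of 0.00211 in limma over 12 libraries but an adjusted p of 0.773, and that in KO by 2.95 ± 0.60 with an adjusted p of 0.117. miR-375-3p had the smallest unadjusted p of all miRNAs tested in both of these comparisons. The KO difference passed without A537T library 26 (adjusted p = 0.0326) and without KO library 32 (0.0394). Of the 9 tested members of the neuroendocrine and neural list, 1 rose (miR-375-3p) and 1 fell (miR-129-5p), and the median was -0.72. Over all miRNAs tested, 2.36% were called higher and 13.2% lower.

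The cluster pair miR-221 and miR-222 rose. These share a seed, lie at chrX:19146294-19146388 and chrX:19146893-19146971 on the minus strand with no other annotated gene, and are known as growth-promoting miRNAs that target the cell cycle inhibitor p27. miR-222-3p stood at 676, 810 and 652 rpm at 30 weeks and at 370, 339 and 243 rpm at 10 weeks. All 30-week values were above all 10-week values, with a log2 change of 1.18 ± 0.22 (limma adjusted p = 0.00752) that passed in all 19 alternatives. miR-221-3p stood at 1647, 2149 and 1319 rpm against 1104, 848 and 724 rpm, a change of 0.93 ± 0.25 (adjusted p = 0.0325), but it was lost without library 36 (adjusted p = 0.128) and without library 35 (0.132). miR-221-5p had a change of 0.80 with an adjusted p of 0.0690. In all, 2 of 4 tested arms of the cluster rose, with a median of 0.87, where 2.36% of all miRNAs tested were called higher. No arm was called in WT or KO, where the medians were 0.70 and 0.35. Over all miRNAs tested, 0.391% were called higher in WT and 1.79% in KO, so no call was to be expected among 4 arms. The WT sums of the cluster did not overlap, at 2428, 2243 and 2265 rpm at 30 weeks and 1754, 1453 and 1150 rpm at 10 weeks. The KO sums overlapped, at 2095, 2414 and 2204 rpm at 30 weeks and 1847, 1868 and 2157 rpm at 10 weeks.

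Both arms of miR-340, from an intron of Rnf130 at chr11:50069702-50069799, rose together. miR-340-5p stood at 969, 1441 and 771 rpm at 30 weeks and 535, 528 and 296.6 rpm at 10 weeks (1.23 ± 0.31, limma adjusted p = 0.0258), and miR-340-3p at 135, 169 and 110 rpm against 75.3, 73.2 and 53.3 rpm (1.02 ± 0.24, adjusted p = 0.0214). Neither arm overlapped between ages, but neither was called without library 35, with limma adjusted p of 0.0665 and 0.0633. miR-340-5p was also called higher in WT, at 1.502 with an adjusted p of 0.0175, where 0.391% of all tested miRNAs were called higher, and in KO, at 1.23 with an adjusted p of 0.00561, where 1.79% were.

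Both arms of miR-142a, a miRNA of blood-forming cells made within Mir142hg at chr11:87756864-87756927, also rose. miR-142a-5p stood at 244, 318 and 193 rpm at 30 weeks and 109, 130 and 97.8 rpm at 10 weeks, a change of 1.14 ± 0.24 (limma adjusted p = 0.0122). miR-142a-3p stood at 73.3, 71.3 and 66.2 rpm against 34.7, 50.3 and 34.4 rpm, a change of 0.83 ± 0.23 (adjusted p = 0.0388). Without library 25 or without library 36 miR-142a-5p was not called (limma adjusted p of 0.0516 and 0.0528), and miR-142a-3p was not called in 9 of 19 alternatives. Of the 6 tested members of the white blood cell list these 2 rose, where 2.36% of all miRNAs tested were called higher. All 6 had a positive change, as did 224 of all 509 tested, and the median of the 6 was 0.42. The summed list took 0.0403% to 0.0584% of reads at 30 weeks and 0.0265% to 0.0325% at 10 weeks. In WT and KO the same sums were 0.0215% to 0.0328% and 0.0416% to 0.0502% at 30 weeks, and 0.0188% to 0.0406% and 0.0341% to 0.0355% at 10 weeks. Of the 6 tested members of the red cell list, only miR-451a was called lower, where 13.2% of all miRNAs tested were. It fell from 333, 351 and 300 rpm to 185, 214 and 174 rpm, a change of -0.78 ± 0.19 (limma adjusted p = 0.0255). The median of the list was -0.45. Its summed share overlapped between the ages, at 0.0443% to 0.153% of reads at 30 weeks and 0.107% to 0.137% at 10 weeks.

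The other rises above 10 rpm were smaller. miR-125a-5p, of the family of the worm miRNA lin-4, stood at 2506, 2484 and 2680 rpm at 30 weeks and 1437, 1596 and 1651 rpm at 10 weeks, a change of 0.71 ± 0.18. miR-29b-3p, which targets collagens, stood at 335, 346 and 249 rpm against 176, 200 and 159 rpm (0.79 ± 0.21). Its relatives with the same seed, miR-29a-3p among them at 0.67 with a limma adjusted p of 0.125, were not called. miR-652-3p, from an intron of Tmem164 on chromosome X, stood at 1006, 1183 and 800 rpm against 528, 623 and 475 rpm (0.87 ± 0.22). None of these 3 was called without library 35, where miR-125a-5p, miR-29b-3p and miR-652-3p had limma adjusted p of 0.0953, 0.0803 and 0.0629. Below 10 rpm, miR-672-5p and miR-3963 rose by 1.51 and 2.62, the latter on 5.58, 6.93 and 38.4 rpm against 1.73, 0 and 2.22 rpm, so that library 27 set much of its size. The rises were sensitive to which libraries entered, with 2 of 40 calls being rises without library 36 and 3 of 42 without library 25. miR-222-3p and miR-375-3p were the only rises called in the comparison and in all 19 alternatives.

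**Figure D4:**
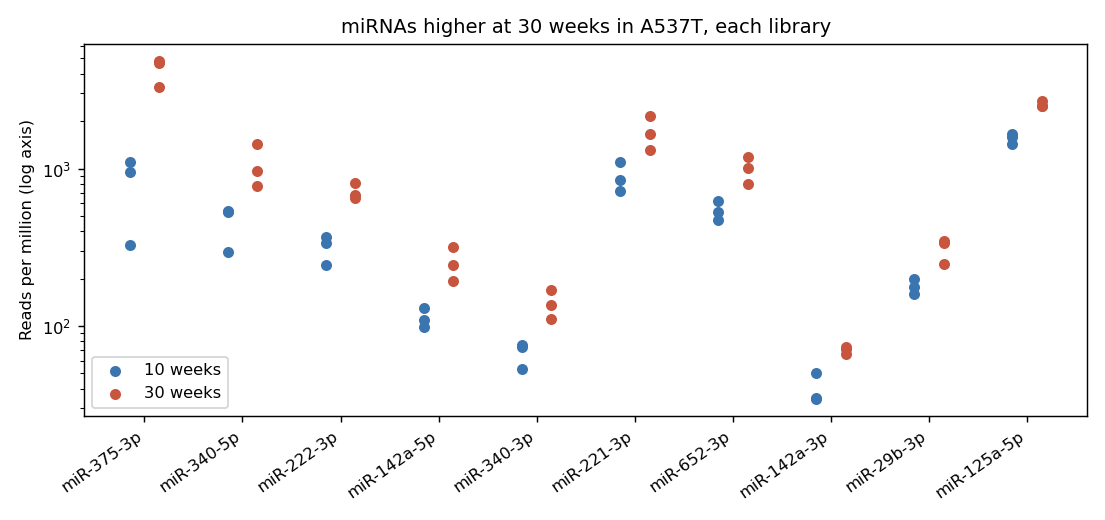
Level in rpm (log axis) of the miRNAs over 10 rpm that were higher at 30 weeks in A537T prostate, with each of the 3 libraries of 10 weeks and 3 of 30 weeks as a point. The ages do not overlap for any of the 10, and the gap is widest for miR-375-3p, at 325 to 1105 rpm and 3281 to 4826 rpm.

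Falls outside the 3 large groups were scattered. miR-138-5p and miR-129-5p, both of neural tissue, had values of 44.5, 8.59 and 46.7 rpm and of 37.0, 8.73 and 43.3 rpm at 30 weeks, with library 26 the lowest for each. At 10 weeks they stood at 74.6, 127 and 135 rpm and at 63.6, 83.9 and 131 rpm, giving changes of -1.99 ± 0.56 (limma adjusted p = 0.0400) and -1.82 ± 0.54 (0.0484). Without library 26 the changes were -1.23 (0.0136) and -1.13 (0.0261), and without library 35 neither was called, with adjusted p of 0.158 and 0.142. Of 19 alternatives, miR-138-5p was not called in 10 and miR-129-5p in 13, for both including median-of-ratios scaling and edgeR. miR-196a-5p of the Hox clusters varied little within each age, at 139, 121 and 132 rpm against 319, 340 and 322 rpm (-1.32 ± 0.19, limma adjusted p = 0.00178). It was not called in every alternative. miR-149-5p, which was called in every alternative, stood at 82.7, 76.1 and 76.1 rpm against 341, 252 and 183 rpm (-1.67). miR-199b-5p of stroma stood at 316, 375 and 234 rpm against 572, 661 and 690 rpm (-1.07). 

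Of the 10 most abundant miRNAs, only miR-1a-3p was called, and the other 9 had changes of -0.23 to 0.48 with adjusted p of 0.212 or more. They were miR-143-3p of smooth muscle and stroma (-0.23), miR-148a-3p (0.44), miR-21a-5p (0.23), miR-26a-5p (0.12), let-7f-5p (0.29), miR-99a-5p (-0.01, positive under size factor scaling), miR-200b-3p (0.43), let-7c-5p (0.48) and let-7g-5p (0.39). Of 21 tested let-7 members none was called, and the same held for 11 of the miR-30 family, 12 of miR-15/16, 19 of miR-17-92 and its paralogues and 6 of the cluster of miR-96 and miR-183. Over all 509 tested, 13.2% were called lower and 2.36% higher. The 1 call among the 10 most abundant and the lack of calls in the smaller lists were near those shares. Of the 509, 224 were positive and 285 negative. The 11 epithelial miRNAs had a median of 0.43 with 10 positive and none called. All 9 tested members of the X-linked cluster of miR-322 were negative, with a median of -0.63 and 6 without overlap between the ages (23.6% of all miRNAs tested were wholly lower), but none was called, the nearest being miR-322-3p at -1.09 (limma adjusted p = 0.0525). Of 18 tested miRNAs of the Sfmbt2 intron, a rodent placental cluster, 17 were negative with a median of -0.45 and none was called. Their means ran from 1.06 to 17.4 rpm, and most were under 4.58 rpm, the worth of 3 reads in library 35.

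The remaining lists held few or no calls. Over all miRNAs tested, 13.2% were called lower and 2.36% higher, and 285 of 509 were negative. Of 9 tested miRNAs of stroma and smooth muscle, 8 were negative and 1 fell (miR-199b-5p), with a median of -0.21, and the list took 17.4% to 40.7% of reads without separating the ages. The endothelial miRNA miR-126a-3p had a change of -0.51 (limma adjusted p = 0.238). Of 7 tested miRNAs of the inflammation list none was called and the median was 0.09. Its largest change was that of miR-146a-5p, which is induced by NF-kappaB signalling, at 1.62 ± 0.50 (adjusted p = 0.0601). It stood at 3202, 10284 and 1966 rpm at 30 weeks and 1328, 1452 and 1162 rpm at 10 weeks, without overlap and with library 26 the highest. Of the miRNAs made within the Hox clusters, 9 were tested and 2 fell (miR-196a-5p and miR-615-3p), while miR-10a-5p had a change of 1.25 (adjusted p = 0.0517) in a group that library 26 divided. Of 11 tested members of the miR-99, miR-100 and miR-125 families, miR-125a-5p alone was called, and the median was 0.03. No member was called of the miR-34 and miR-449 family, with 6 tested and a median of -0.40, of the clusters of miR-23, miR-24 and miR-27, with 10 tested and a median of -0.08, or of the miR-148 family, with 6 tested and a median of 0.29. The 4 miRNAs of the H19-Igf2 locus, which is imprinted like Dlk1-Dio3, had reads but none reached the mean of 1 rpm needed for a test. Entries derived from transfer RNA or small nucleolar RNA, of interest because ELAC2 cuts transfer RNA precursors, numbered 6 tested, with a median of 0.05 and none called, and the most abundant of them, miR-1839-5p, had a change of 0.14 that turned negative with array weights and without library 26.

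The design also asks whether the change with age in A537T differed from that in the other genotypes. In the interaction tests 0 of 516 miRNAs passed against WT (0%) and 0 of 511 against KO (0%) in limma, with 27 and 74 at an unadjusted p under 0.05. edgeR also called 0 in both, with 40 and 63 at an unadjusted p under 0.05. Without A537T library 26, 7 miRNAs passed against KO, all with a more positive change in A537T, among them miR-375-3p, miR-7b-5p and miR-138-5p. Without KO library 32 a different set of 7 passed, of which miR-375-3p was common to both sets.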

How the data were processed

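Total RNA of ventral and lateral prostate lobes was made into libraries with the TruSeq Small RNA kit and sequenced on a NovaSeq. The authors merged read pairs and removed adapters with BBMerge, counted miRNAs with mirDeep2 against GRCm38 and miRBase, and summed miRNAs of identical sequence. The deposited tables hold, for 1963 miRNAs, a signal that is reads divided by a DESeq2 size factor, with 6 libraries to a table. Tables of the authors' own comparisons, which hold log2 fold changes and s-values, were not used. Columns were grouped by the names of the tables, in which the mutant line named only as such was read as A537T, and columns in both the KO and the mutant table were taken as WT. Columns that matched no group numbered 0.

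Division by what 1 read is worth in each column gave back the reads (100% whole within 0.001 reads, identical in both tables for 6 of 6 shared libraries), and each column was divided by its sum to join tables that were normalised separately. Depth, 655455 to 21870210 reads in the 6 libraries, sets the precision, and 3 reads correspond to 4.58 rpm in library 35. limma 3.58.1 (R 4.3.3) with a variance trend was run on log2(rpm + 1) for miRNAs with a mean of at least 1 rpm, 2-sided, with Benjamini-Hochberg adjustment and a threshold of 0.05. Just outside the filter were miR-196a-2-3p (0.993 rpm) and miR-3962 (0.980 rpm), and just inside miR-201-5p (1.00 rpm) and miR-217-5p (1.01 rpm). Changes with age were compared between genotypes by an interaction contrast over 12 libraries. Alternatives were pseudocounts of 10 and 0.1, no filter, a mean of at least 10 rpm, TMM and median-of-ratios scaling, a total without muscle miRNAs, no variance trend, array weights, edgeR 4.0.16 and DESeq2 1.42.0 on recovered reads, fits with WT or all genotypes, and leaving out each library. The code was tested on simulated data. Named miRNAs were up to 12 rises and 12 falls over 10 rpm without overlap, the 10 most abundant, the most abundant of each list, and the smallest p of each interaction, and other names were chosen after their values were seen. Of 509 names tested, 435 matched RefSeq. The members and lists were chosen with earlier results of these data known.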

Additional observations from a re-analysis of the deposited data

How the results depend on the processing

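The comparison of ages in A537T called 79 miRNAs, and 124 with array weights, 52 with no filter (of 1301), 23 in a fit of 12 libraries with WT, and 40 to 97 when 1 library was left out. The lowest counts were 40 without library 36, 42 without library 25 and 50 without library 35, and the highest was 97 without library 26. The direction of the named calls did not change in any alternative run. Of 13 named falls, 8 passed throughout, as did 2 of 10 named rises, and 16 miRNAs were called in the comparison and in all 19 alternatives. The interaction with KO called 0 to 7 miRNAs when 1 library was left out, and that with WT called 0 in every case. No paired analysis was possible because the columns carry no replicate number. The shallow library 35 limits miRNAs under 4.58 rpm, where fewer than 3 of its reads were counted.

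Changes of sign occurred in 12 named miRNAs, none of them called. With a total without muscle miRNAs, miR-26a-5p was -0.0022, miR-122-5p -0.048 and miR-92a-3p -0.087. With TMM scaling, miR-99a-5p was 0.084, miR-16-5p 0.046 and miR-27b-3p 0.033. With median-of-ratios scaling, miR-99a-5p was 0.16, miR-16-5p 0.12, miR-27b-3p 0.11 and miR-192-5p 0.054. With array weights, miR-486ab-5p was 0.14, miR-16-5p 0.029 and miR-1839-5p -0.0087. With edgeR, miR-99a-5p was 0.15, miR-486ab-5p 0.13, miR-16-5p 0.11, miR-27b-3p 0.078 and miR-192-5p 0.022, and with DESeq2 0.14, 0.12, 0.090, 0.056 and 0.0061. With a pseudocount of 10, miR-122-5p was -0.00023. With 1 library left out, the changes ran from -0.54 to 0.054 for miR-143-3p, -0.014 to 0.42 for miR-21a-5p, -0.11 to 0.073 for miR-99a-5p, -0.92 to 0.38 for miR-486ab-5p, -0.14 to 0.32 for miR-122-5p, -0.15 to 0.051 for miR-16-5p, -0.11 to 0.16 for miR-92a-3p, -0.20 to 0.075 for miR-27b-3p, -0.039 to 0.36 for miR-182-5p, -0.24 to 0.0028 for miR-192-5p and -0.13 to 0.36 for miR-1839-5p.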

Other observations

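Library 26 held several miRNAs at levels unlike libraries 25 and 27, and KO library 23 stood apart from the other KO libraries of 30 weeks in the same miRNAs. miR-10a-5p, of the Hox B cluster, stood at 26995, 10890 and 32210 rpm in A537T libraries 25, 26 and 27 and at 7580 to 9832 rpm at 10 weeks. Its log2 change of 1.25 (limma adjusted p = 0.0517) became 1.73 (adjusted p = 0.000575) without library 26. In the KO libraries 22, 23 and 24 it stood at 29834, 8886 and 24458 rpm. miR-881-3p, of an X-linked cluster known from the germline and epididymis, stood at 7.32, 0 and 8.49 rpm in libraries 25, 26 and 27 and at 15.7, 0 and 8.69 rpm in KO libraries 22, 23 and 24, against 0.207 to 1.53 rpm in A537T at 10 weeks. The A537T change was 1.37 (limma adjusted p = 0.270), and 2.42 (adjusted p = 0.00279) without library 26. The 10-week value of 1.53 rpm was 1 read of library 35. Library 26 was set apart by the levels of these same miRNAs, so the adjusted p of miR-10a-5p and miR-881-3p without it are no support for a rise. The red cell miRNA miR-486ab-5p stood at 1004, 219 and 1334 rpm in libraries 25, 26 and 27, and 749 to 1004 rpm at 10 weeks. What set these libraries apart was not tested.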
